A study of Mus musculus with 121 samples.

Results

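Livers of heterozygous (HET) C57BL/6 mice fed the Alios diet were compared with livers of HET mice fed the Control diet, gene by gene. These are 9 of the 121 labelled samples of the series, 5 on Alios and 4 on Control, and were taken by their liver, diet and genotype labels from the liver count table. The series covers liver and gonadal fat of wild type (WT), HET and knockout (KO) mice on 4 diets. All mice started their diet at 8 weeks of age and stayed on it for 18 weeks, with free access to food, housed 3 to 4 in a cage. No label used here states the sex, what the Control and Alios diets contained or how the KO allele was made.

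The labels write the altered gene as PEP, read here as Pepd on prior knowledge of this work. Pepd encodes prolidase, the enzyme that splits dipeptides with proline or hydroxyproline at their end, a late step in the breakdown of collagen. Alios is a name used for diets rich in trans fat and given with sugar, made to bring about fatty liver in mice. In such livers hepatocytes store triglyceride in droplets coated by perilipins, the synthesis and burning of fatty acids are reset, and macrophages gather around lipid-laden cells. HET animals are mice with 1 altered Pepd allele, so both diet groups carry it.

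Total counts of the 9 libraries ran from 1106283 to 7479190. Control library 3 and Alios library 2, with 1106283 and 1120807 counts, were the shallowest, so a single read stood for 0.923 and 0.961 CPM there. CPM is the count scaled to the library total, corrected by TMM, an edgeR size correction. Changes are log2 fold changes of Alios against Control with their SE, from the edgeR quasi-likelihood test, and a gene was called at a Benjamini-Hochberg adjusted p under 0.05 over the 11595 genes tested. Hepatocyte RNA dominated each library, with Alb, the serum albumin gene, at 65005 to 97886 CPM on Alios and 71061 to 82845 CPM on Control.

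Pepd itself stood at 28.4, 18.2, 24.0, 29.1 and 25.9 CPM in the 5 Alios libraries and at 20.5, 20.4, 21.2 and 25.8 CPM in the 4 Control libraries. The diet groups overlapped and the gene was not called (log2 0.24 ± 0.12, edgeR adjusted p = 0.406). In the WT groups Pepd averaged 42.7 ± 5.69 CPM on Alios (SD, n = 6) and 44.3 ± 4.12 CPM on Control (SD, n = 5), and no KO library on these diets exceeded 3.16 CPM. All 9 HET libraries lay above every KO library and below every WT library, which ran from 32.3 to 50.2 CPM.

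The Alios diet went with a small set of changed genes in HET liver. Of the 11595 genes tested, 22 were called (0.19%), 16 higher (0.138%) and 6 lower (0.0517%) on Alios. Their fold changes ran from 1.47 to 4.85 and their edgeR adjusted p from 0.0271 to 0.0495. In 19 of the 22 the Alios and Control libraries did not overlap, against 511 of all genes tested (4.41%, with 2.34% higher and 2.07% lower on Alios). The 22 were chosen for their difference in these same libraries, so this share is no separate evidence. Genes of lipid droplets, fatty acid uptake, lactate production and bile transport were among the higher ones, and a urea cycle enzyme, a triglyceride synthase and a membrane peptidase among the lower ones. The number called depended on single mice: 0 genes passed without Control library 1, Control library 4 or Alios library 5, 1 without Control library 2 or Alios library 3, 10 without Alios library 4, 11 without Control library 3 and 50 without Alios library 1. It also moved with libraries of other groups, which share the estimate of the spread. In a fit of only the 2 groups compared, 0 genes were called. Alios KO library 8 was far shallower than the rest, with 5692 genes detected and a single read standing for 21.3 CPM. Every other library of the fit had at least 1106283 counts. Without Alios KO library 8, 10 genes were called, 9 without WT Control library 2 or 4, and 63 without WT Control library 3. At an unadjusted p under 0.05 stood 1519 genes (13.1%), 856 higher (7.38%) and 663 lower (5.72%).

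**Figure D1:**
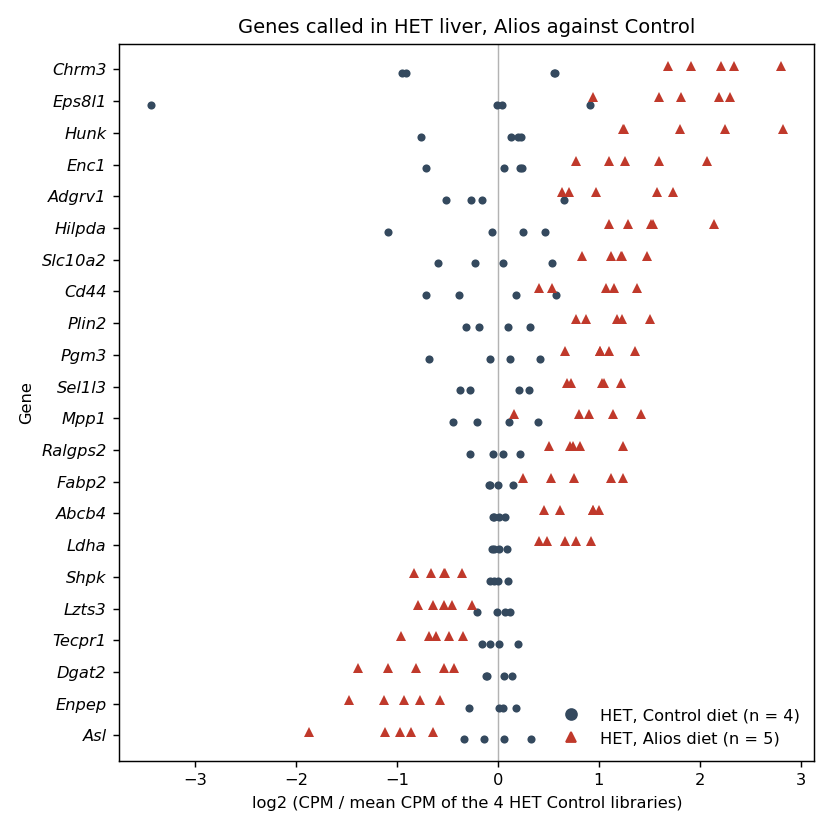
The 22 called genes are shown 1 per row, each point 1 HET liver library, on a log2 axis of CPM relative to the mean of the 4 Control libraries (circles, Control; triangles, Alios). In 19 genes the triangles lie apart from the circles; Adgrv1, Cd44 and Mpp1 overlap.

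Of the lipid droplet genes, 2 were called and both rose. Plin2, the perilipin that coats droplets in hepatocytes (chromosome 4, 86648386 to 86670060, minus strand, GRCm38), stood at 882, 943, 1163, 1461 and 1203 CPM on Alios and at 451, 414, 640 and 551 CPM on Control. Every Alios library lay above every Control library, a 2.20-fold rise (log2 1.14 ± 0.21, edgeR adjusted p = 0.0271). Hilpda, a droplet protein that inhibits the triglyceride lipase ATGL, was sparse at 4.23 to 8.69 CPM on Alios against 2.71, 1.89, 0.923 and 2.34 CPM. It rose 2.63-fold without overlap (log2 1.39 ± 0.30, edgeR adjusted p = 0.0464), on 5 to 40 reads a library on Alios and 1 to 20 on Control. It was the 1 gene of the 22 that DESeq2 did not call (DESeq2 adjusted p = 0.139). Of 16 lipid droplet genes tested, these were the 2 calls, beside 0.19% of all genes. At an unadjusted edgeR p under 0.05, 5 were higher and 2 lower, beside 7.38% and 5.72% of all genes. The lower ones were Plin1 and the lipase Lipe. Cidec, which fuses droplets into larger ones, was at 15.4 to 91.7 CPM on Alios and 8.14 to 20.2 CPM on Control, overlapping (log2 1.67 ± 0.50, edgeR adjusted p = 0.139). The list median was log2 0.27, beside 0.01 over all genes. Without Control library 4, Alios library 4 or Alios library 5, 3 of these genes were higher at that level, and without Control library 4 only 1 was lower.

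Adipocyte transcripts were present in some of these libraries. Plin1, the perilipin of fat cells, was at 3.77 and 6.74 CPM in Control libraries 2 and 4 and at 0.961 CPM in Alios library 2, and at 0 in the other 6 libraries. Adiponectin (Adipoq) followed it, at 4.15, 5.57 and 2.88 CPM in the same 3 libraries and at 0 elsewhere. Their part in the lipid droplet values was not tested.

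Fabp2, the intestinal fatty acid binding protein, stood at 194, 166, 137, 251 and 272 CPM on Alios and at 108, 109, 115 and 128 CPM on Control. The groups did not overlap, and the gene rose 1.78-fold (log2 0.83 ± 0.17, edgeR adjusted p = 0.0421). It was the 1 call among 17 genes of Pparg response and fatty acid uptake. At an unadjusted edgeR p under 0.05, 6 of these were higher and 0 lower, beside 7.38% and 5.72% of all genes. Without Control library 1 or Alios library 2, 3 were higher. The list median was log2 0.27, with 0.19 without Control library 1 and 0.41 without Control library 4. The fatty acid translocase Cd36 was at 248 against 150 CPM on average (log2 0.75 ± 0.46) and the nuclear receptor Pparg at 22.1 against 20.3 CPM (log2 0.27 ± 0.31), neither of them called. Apoa4, an apolipoprotein of intestinal chylomicrons that the liver also makes, missed the edgeR threshold and was called higher by DESeq2. It was at 1302, 430, 1731, 4002 and 3394 CPM on Alios and at 484, 366, 563 and 703 CPM on Control, with Alios library 2 inside the Control range (log2 2.04 ± 0.45, edgeR adjusted p = 0.0527).

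Among genes that build fatty acids and triglyceride, 1 was called by edgeR, and it fell. Dgat2, which adds the last acyl chain to triglyceride (chromosome 7, 99153658 to 99182719, minus strand, GRCm38), was at 279 to 540 CPM on Alios against 803, 762, 677 and 670 CPM on Control. It fell 1.75-fold with no overlap (log2 -0.81 ± 0.17, edgeR adjusted p = 0.0465). It was the 1 call of 30 genes in the list, whose median was log2 -0.26 (-0.54 without Control library 2 and -0.13 without Control library 3). At an unadjusted edgeR p under 0.05, 11 of the 30 were lower and 7 higher, beside 5.72% and 7.38% of all genes.

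The lower members included Srebf1, Fasn and Elovl6, which act in new fatty acid synthesis. Srebf1, the insulin-responsive lipogenic factor, was at 249 to 328 CPM on Alios and 411 to 746 CPM on Control (log2 -0.88 ± 0.23, edgeR adjusted p = 0.0975). Fatty acid synthase (Fasn) was at 1592, 660, 975, 1581 and 2114 CPM against 4319, 884, 3524 and 2971 CPM (log2 -1.08 ± 0.40, edgeR adjusted p = 0.226). Control library 2 stood apart from the other Control libraries in Fasn, and likewise in the elongase Elovl6, at 182 CPM where the others had 552 to 984 CPM, so both genes overlapped between diets. The higher members included the desaturases and the elongase that make long polyunsaturated fatty acids. Fads2 was at 857, 822, 906, 606 and 860 CPM on Alios against 440, 440, 408 and 529 CPM on Control (log2 0.83 ± 0.22, edgeR adjusted p = 0.094). Fads1 (log2 0.63 ± 0.15, edgeR adjusted p = 0.0715) and Elovl2 (log2 0.67 ± 0.17, edgeR adjusted p = 0.0945) also had higher values on Alios. None of these passed the edgeR threshold, while DESeq2 called Srebf1 lower and Fads1, Fads2 and Elovl2 higher. The count of lower members was 6 without Control library 1 and 7 without Alios library 3.

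Of 37 genes of fatty acid oxidation and ketogenesis, 0 were called by edgeR, and DESeq2 called 3 as higher, Ehhadh, Acaa1b and Crat. At an unadjusted p under 0.05, 17 were higher and 0 lower, beside 7.38% and 5.72% of all genes, and the list median was log2 0.33. Ehhadh, a peroxisomal oxidation enzyme, was at 572, 411, 633, 706 and 562 CPM on Alios and at 360, 273, 329 and 354 CPM on Control. Acaa1b, a peroxisomal thiolase, was at 958 to 1547 CPM against 642 to 694 CPM, and carnitine acetyltransferase (Crat) at 78.8 to 129 CPM against 52.0 to 70.1 CPM. In these 3 genes all Alios libraries were above all Control libraries, with edgeR adjusted p of 0.113, 0.126 and 0.094. Fgf21, a hormone of the liver in fasting and fat feeding, was at 13.3, 0.961, 62.4, 15.2 and 14.5 CPM against 2.26 to 4.10 CPM, with Alios library 2 the lowest of all 9 (log2 2.84 ± 1.11, edgeR adjusted p = 0.255). The Ppara target Cyp4a14 showed log2 0.26 ± 0.63, not called. Without Control library 1 the count of higher members was 8, and without Control library 4 or Alios library 4 it was 10.

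Ldha, the lactate dehydrogenase subunit that favours lactate formation (chromosome 7, 46841475 to 46855627, plus strand, GRCm38), stood at 704, 908, 1005, 744 and 843 CPM on Alios. On Control it was at 534, 565.3, 516 and 508.5 CPM, all below the lowest Alios library. The 1.58-fold rise (log2 0.66 ± 0.13, edgeR adjusted p = 0.0271) was the 1 call among 30 enzymes of glucose, glycogen and fructose. The list median had the opposite sign, log2 -0.32. At an unadjusted edgeR p under 0.05, 6 members were lower and 1 higher, beside 5.72% and 7.38% of all genes. The count of lower members was 10 without Control library 2 or Alios library 1. It was 5 without Control library 1 or Alios library 2. Pklr, the liver pyruvate kinase, was at 439, 97.0, 175, 412 and 419 CPM against 877, 485, 928 and 836 CPM (log2 -1.33 ± 0.38, edgeR adjusted p = 0.123). Khk, the fructose kinase, was at 246 to 573 CPM against 648 to 993 CPM (log2 -0.91 ± 0.25, edgeR adjusted p = 0.103), and the gluconeogenic enzyme Fbp1 at 925 to 1108 CPM against 1241 to 1516 CPM (log2 -0.48 ± 0.12, edgeR adjusted p = 0.076). All 3 had no overlap between diets. None was called by edgeR, and DESeq2 called Khk and Fbp1.

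Ldha and Hilpda are textbook targets of hypoxia-inducible factors, whose core site reads ACGTG, and their promoters are shown because both genes were called. The 250 bases before a RefSeq start (GRCm38.p6, plus strand for both) are chr7:46845554-46845803 for Ldha and chr6:29272376-29272625 for Hilpda, and capitals mark ACGTG on either strand.
Ldha: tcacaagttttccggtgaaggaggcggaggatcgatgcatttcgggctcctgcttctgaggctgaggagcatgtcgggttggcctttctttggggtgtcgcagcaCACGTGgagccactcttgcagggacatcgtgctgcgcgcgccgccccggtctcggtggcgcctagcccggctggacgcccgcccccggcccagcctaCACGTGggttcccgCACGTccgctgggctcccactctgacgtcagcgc
Hilpda: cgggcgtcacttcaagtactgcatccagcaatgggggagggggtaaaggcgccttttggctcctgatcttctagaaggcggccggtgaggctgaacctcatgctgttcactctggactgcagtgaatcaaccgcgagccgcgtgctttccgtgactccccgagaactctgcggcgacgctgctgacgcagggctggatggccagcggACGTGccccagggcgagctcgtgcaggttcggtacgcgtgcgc
The Ldha window held 5 matches counted over both strands, where a CACGTG counts on each strand, and the Hilpda window held 1. Other RefSeq starts of the same genes had none, so the windows shown are those with matches. The bases directly after the Ldha start shown were not found in an annotated Ldha transcript, unlike those after its other start. The Hilpda window shown reaches past 29272488, where the annotated gene begins. ACGTG occurred in 16.6% of 32851 promoters of this length, which cover 18.5% of genes, and in 5 of the 18 called genes that had a promoter entry (Cd44, Eps8l1, Hilpda, Ldha and Slc10a2). The motif was chosen after the expression values were seen, and a match is a description of the letters.

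Asl, argininosuccinate lyase of the urea cycle (chromosome 5, 130011258 to 130029247, minus strand, GRCm38), was at 430, 342, 370, 184 and 310 CPM on Alios and at 844, 699, 531 and 611 CPM on Control. All Alios libraries lay below all Control libraries, and Alios library 4 was the lowest. It fell 2.06-fold (log2 -1.04 ± 0.22, edgeR adjusted p = 0.0464). Of 36 enzymes of amino acid catabolism and the urea cycle, Asl was the 1 call. At an unadjusted edgeR p under 0.05, 9 were lower and 0 higher, beside 5.72% and 7.38% of all genes. The count of lower members was 17 without Alios library 2, 7 without Alios library 4 and 6 without Control library 1. The list median was log2 -0.26, with -0.40 without Alios library 2 and -0.18 without Alios library 4. Prodh, proline dehydrogenase, was at 36.1, 30.7, 12.9, 18.5 and 26.6 CPM against 42.7, 50.5, 55.4 and 46.6 CPM (log2 -0.95 ± 0.23, edgeR adjusted p = 0.0708). Gnmt, which disposes of methyl groups as sarcosine, was at 335 to 1246 CPM against 1309 to 1573 CPM (log2 -0.94 ± 0.25, edgeR adjusted p = 0.0954). The other urea cycle genes had smaller values: Cps1 log2 -0.61 ± 0.31, Arg1 log2 -0.40 ± 0.17, Ass1 log2 -0.37 ± 0.28 and Otc log2 -0.11 ± 0.15, none of them called. DESeq2 called Asl, Prodh and Gnmt.

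Of 15 genes of bile acid and organic anion transport 2 were called, beside 0.19% of all genes, and both rose. Abcb4, the canalicular flippase that secretes phospholipid into bile, was at 321.9, 359, 473, 452 and 452 CPM on Alios and within 227 to 247 CPM on Control. The 1.75-fold rise showed no overlap (log2 0.81 ± 0.17, edgeR adjusted p = 0.0421). Slc10a2, the apical bile acid transporter known from ileum and cholangiocytes (chromosome 8, 5083219 to 5105351, minus strand, GRCm38), was at 73.4, 68.2, 87.5, 56.0 and 73.0 CPM against 32.4, 20.7, 26.8 and 45.4 CPM. It rose 2.23-fold, also without overlap (log2 1.16 ± 0.24, edgeR adjusted p = 0.045). Slc10a1, the bile acid importer of the sinusoidal membrane, was at 413 to 740 CPM on Alios against 949 to 1184 CPM on Control (log2 -0.94 ± 0.32, edgeR adjusted p = 0.19). The bile salt export pump Abcb11 showed log2 0.18 ± 0.20 and Cyp7a1, the first enzyme of bile acid synthesis, log2 -0.64 ± 0.59, neither called. Of 24 genes of cholesterol synthesis and uptake, 0 were called and 0 had an unadjusted p under 0.05 in either direction by edgeR, and DESeq2 called 0, with a median of log2 0.07. Summed cholangiocyte markers were at 59.6, 58.6, 84.7 and 89.2 CPM in Alios libraries 2, 3, 5 and 1 and at 65.5 to 68.3 CPM on Control, with 366 CPM in Alios library 4, of which 340 CPM was Spp1. The part of these cells in the Slc10a2 values was not tested.

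Enpep, a membrane aminopeptidase that trims acidic residues from peptides such as angiotensin (chromosome 3, 129269175 to 129332720, minus strand, GRCm38), had the smallest p of all genes. It was at 139, 74.0, 94.3, 108 and 121 CPM on Alios against 233, 170, 214 and 208 CPM on Control, apart in every library (log2 -0.93 ± 0.16, edgeR adjusted p = 0.0271). Shpk, the sedoheptulose kinase that feeds the pentose phosphate pathway, fell from 110 ± 6.08 CPM (SD, n = 4) to 73.8 ± 9.10 CPM (SD, n = 5), with edgeR adjusted p = 0.0271. Tecpr1, a protein of autophagosome and lysosome fusion, was at 12.5 to 19.2 CPM against 21.8 to 27.8 CPM and fell (log2 -0.62 ± 0.12, edgeR adjusted p = 0.0326). Lzts3, a postsynaptic scaffold protein in neurons, was at 23.9 to 34.6 CPM against 35.8 to 44.9 CPM and fell too (log2 -0.56 ± 0.12, edgeR adjusted p = 0.0486). None of these 4 genes overlapped between diets.

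The largest fold changes belonged to sparse genes. Chrm3, the M3 muscarinic acetylcholine receptor, was at 8.26, 5.76, 12.5, 6.73 and 9.08 CPM on Alios and at 0.949, 2.64, 0.923 and 2.64 CPM on Control, which is 6 to 55 reads against 1 to 9. It rose 4.85-fold without overlap (log2 2.28 ± 0.45, edgeR adjusted p = 0.0326). Eps8l1, an adaptor of actin remodelling, was at 2.82 to 7.22 CPM against 0.136 to 2.77 CPM (log2 2.27 ± 0.48, edgeR adjusted p = 0.0464), where the lowest Alios and the highest Control library nearly met. Without Control library 1, where it had 1 read, its change was log2 1.51 with an edgeR adjusted p of 0.322. Hunk, a kinase of the AMPK family, was at 3.80 to 11.4 CPM against 0.949 to 1.89 CPM (log2 2.03 ± 0.42, edgeR adjusted p = 0.0447). Enc1, an actin-binding Kelch protein, was at 10.6 to 26.1 CPM against 3.77 to 7.33 CPM (log2 1.45 ± 0.32, edgeR adjusted p = 0.0495). Adgrv1, a large adhesion receptor, was at 4.56 to 9.77 CPM against 2.05 to 4.61 CPM, overlapping in 1 library of each diet (log2 1.43 ± 0.30, edgeR adjusted p = 0.0464). HET Control averaged 1.79 CPM in Chrm3, 1.47 in Eps8l1, 1.61 in Hunk, 6.19 in Enc1 and 2.94 in Adgrv1. The WT Control means were higher, at 4.38, 4.63, 4.41, 9.10 and 6.98 CPM in that order. WT changes on Alios were log2 0.37 ± 0.37, -0.49 ± 0.35, 0.21 ± 0.32, 0.72 ± 0.28 and 0.34 ± 0.23, with no call. The source of the lower HET Control levels was not tested.

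The remaining higher genes had intermediate levels. Pgm3, an enzyme of UDP-N-acetylglucosamine synthesis, was at 37.5, 27.9, 35.4, 35.4 and 44.9 CPM against 23.5, 10.9, 16.6 and 19.1 CPM (log2 1.02 ± 0.20, edgeR adjusted p = 0.0271). Sel1l3 was at 34.6 to 50.2 CPM against 16.6 to 26.7 CPM (log2 1.01 ± 0.19, edgeR adjusted p = 0.0271). Ralgps2, an exchange factor for the GTPase Ral, was at 34.8 to 58.2 CPM against 20.3 to 28.6 CPM (log2 0.86 ± 0.16, edgeR adjusted p = 0.0271). None of these 3 overlapped. Cd44, the hyaluronan receptor of leukocytes and injured epithelia, was at 19.2, 11.5, 18.3, 22.6 and 12.6 CPM against 6.65, 9.80, 12.9 and 5.28 CPM, with Control library 3 inside the Alios range (log2 1.15 ± 0.25, edgeR adjusted p = 0.0486). Mpp1, a membrane scaffold known from red cells, was at 33.6 to 80.6 CPM against 22.1 to 39.6 CPM, also overlapping (log2 0.94 ± 0.20, edgeR adjusted p = 0.0486). The annotation places other genes over parts of Mpp1 (Dkc1) and Pgm3 (Dop1a) on the opposite strand, over Ralgps2 on both strands (Angptl1 on the opposite one), and over Chrm3 and Adgrv1 on the same strand. The sources used here do not say whether reads were counted by strand, so these 5 values are less certain.

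**Figure D2:**
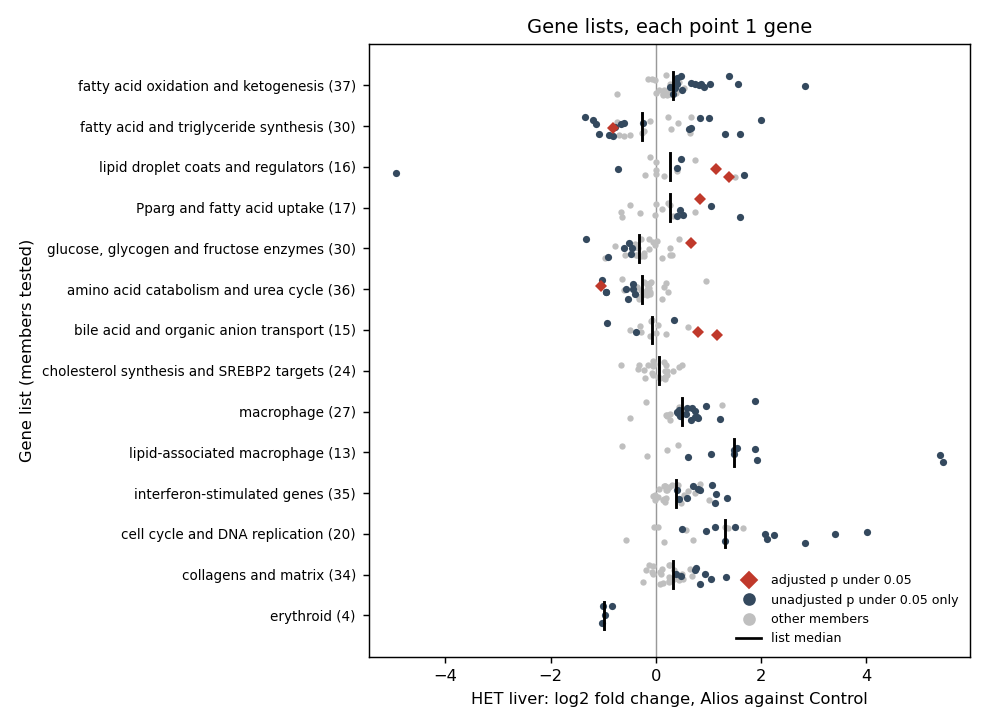
Each point is the log2 fold change of 1 gene in HET liver, Alios against Control, in 14 of the gene lists (red diamonds, adjusted p under 0.05; dark points, unadjusted p under 0.05 only; bars, list medians). Medians lie at 1.48 for lipid-associated macrophage genes, 1.31 for cell cycle genes and -0.98 for globins, 3 lists with no member called by edgeR.

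Macrophage transcripts had mostly higher values on Alios, without a call. Of 27 macrophage markers tested 0 were called by edgeR and 0 by DESeq2. At an unadjusted edgeR p under 0.05, 15 were higher and 0 lower, beside 7.38% and 5.72% of all genes. The median was log2 0.49. The summed level was 990, 967, 1246, 1256 and 901 CPM on Alios and 619, 997, 895 and 730 CPM on Control, so the groups overlapped through Control library 2. Cd68, a lysosomal macrophage protein, was at 9.61 to 19.4 CPM against 6.51 to 11.3 CPM (log2 0.74 ± 0.25, edgeR adjusted p = 0.184). The monocyte receptor Ccr2 was at 4.42, 0.961, 8.75, 18.2 and 3.47 CPM against 0.923 to 2.64 CPM (log2 1.88 ± 0.56, edgeR adjusted p = 0.139), while the Kupffer cell genes Clec4f (log2 0.19 ± 0.17) and Timd4 (log2 -0.19 ± 0.36) had values near 0 change. In whole liver, fewer or more cells of a type and less or more RNA per cell cannot be told apart. The count of higher markers was 4 without Control library 1, 11 without Control library 4 and 20 without Control library 2.

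Genes of lipid-associated macrophages, the Trem2-positive cells that surround fat-filled hepatocytes, were highest in 2 Alios mice. Of 13 tested, 0 were called by edgeR and 1, Mmp12, by DESeq2. At an unadjusted edgeR p under 0.05, 9 were higher and 0 lower, beside 7.38% and 5.72% of all genes. The median was log2 1.48. The sum was 289, 283, 341.1, 700 and 268 CPM on Alios and 191, 199, 267 and 226 CPM on Control. The groups did not overlap, and Alios library 4 stood apart through Spp1 (osteopontin) at 340 CPM, where the other 8 libraries had 31.6 to 64.4 CPM. Mmp12, the macrophage elastase, was at 9.99, 1.92, 26.6, 22.8 and 4.62 CPM on Alios against 0.271, 0, 0.923 and 0.293 CPM on Control (log2 5.46 ± 1.44, edgeR adjusted p = 0.0961). Trem2 was at 4.18 and 4.56 CPM in Alios libraries 3 and 4 and at 0 in Alios library 2, against 0 to 0.814 CPM on Control (log2 1.89 ± 0.82, edgeR adjusted p = 0.319). Without Alios library 4, 4 genes of the list were higher at that level and the median was log2 0.91.

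Proliferation genes followed a like pattern. Of 20 cell cycle and DNA replication genes tested, 0 were called by edgeR and 1, Ccnd1, by DESeq2. At an unadjusted edgeR p under 0.05, 11 were higher and 0 lower, beside 7.38% and 5.72% of all genes. These cell cycle genes had a median of log2 1.31. Their sum was 129, 112, 306.5, 212 and 111 CPM on Alios and 82.9, 89.0, 96.9 and 90.0 CPM on Control, with every Alios library above every Control library and libraries 3 and 4 the highest. Mki67, the Ki-67 proliferation antigen, was at 2.69, 1.92, 31.6, 20.4 and 3.80 CPM against 1.22, 2.64, 3.69 and 0.879 CPM, so Alios libraries 1 and 2 lay within the Control range (log2 2.84 ± 0.81, edgeR adjusted p = 0.126). Cyclin D1 (Ccnd1), which drives entry into the cycle, was at 34.4, 12.5, 69.2, 30.4 and 16.3 CPM against 4.61 to 8.21 CPM, apart in every library (log2 2.25 ± 0.57, edgeR adjusted p = 0.0876). Without Alios library 3 the count of higher members was 6 and the median log2 0.87.

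**Figure D3:**
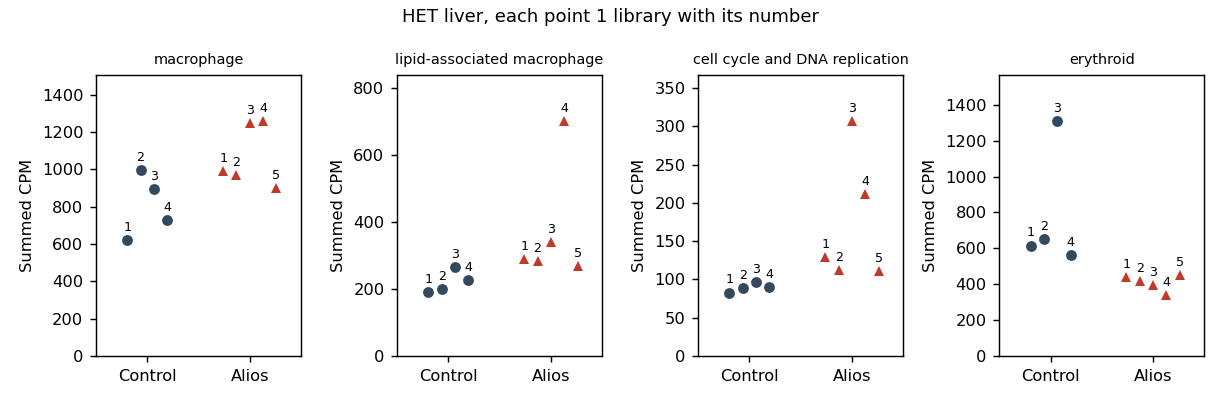
Summed CPM of 4 gene lists is plotted for each HET liver library, with its library number, on axes that start at 0 (circles, Control; triangles, Alios). Alios libraries 3 and 4 are the highest in the macrophage, lipid-associated macrophage and cell cycle sums, and Control library 3 is the highest in the erythroid sum at 1307 CPM.

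Interferon-stimulated genes and matrix genes gave smaller shifts. Of 35 interferon-stimulated genes 0 were called by edgeR or DESeq2. At an unadjusted edgeR p under 0.05, 10 were higher and 0 lower, beside 7.38% and 5.72% of all genes. The higher count was 6 without Control library 4 or Alios library 3. Their median was log2 0.39 (0.24 without Control library 1 and 0.21 without Alios library 3). The antiviral enzyme Oas2 was at 6.94 to 20.5 CPM against 3.77 to 12.0 CPM (log2 1.07 ± 0.30, edgeR adjusted p = 0.116). Of 34 collagens and matrix genes 0 were called by edgeR or DESeq2. At an unadjusted edgeR p under 0.05, 8 were higher and 0 lower, beside the same shares of all genes. Their median was log2 0.33 (0.12 without Alios library 4 and 0.21 without Alios library 3). The fibrillar collagen Col3a1 was at 40.2, 30.7, 57.8, 104 and 29.7 CPM against 27.9, 19.6, 31.4 and 34.9 CPM (log2 0.93 ± 0.38, edgeR adjusted p = 0.287). Acta2, the actin of activated stellate cells, showed log2 -0.21 ± 0.47. Of 16 stellate cell and fibroblast markers, 0 were called by edgeR or DESeq2 and 11 had a positive change, with a median of log2 0.22. At an unadjusted edgeR p under 0.05, 3 were higher and 1 lower, beside 7.38% and 5.72% of all genes. Their sum was 536 to 895 CPM on Alios and 560 to 645 CPM on Control. The matrix count was 2 without Control library 2 or Alios library 4, 4 without Alios library 3 and 5 without Control library 1, and the summed matrix level overlapped, at 2803 to 2987 CPM on Alios and 2838 to 3055 CPM on Control.

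Globin transcripts, which come from blood in the tissue, had lower values on Alios. All 4 globin genes tested were lower at an unadjusted edgeR p under 0.05 with no overlap between diets. Over all genes, 5.72% were lower at that level and 2.07% were lower without overlap. Of the 4 globin genes 0 were called by edgeR, and DESeq2 called 3, all but Hbb-bt. Hba-a1 was at 73.8, 65.3, 65.0, 57.8 and 81.1 CPM on Alios and at 114, 119, 211 and 102 CPM on Control (log2 -0.96 ± 0.22, edgeR adjusted p = 0.0615). Control library 3 was the highest in each of the 4 genes, and without it 3 of the 4 remained below that p. The summed erythroid level was 340.8 to 452 CPM on Alios and 560 to 1307 CPM on Control, and its part in the other differences was not tested.

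WT mice on the same 2 diets allowed the same comparison in 6 Alios and 5 Control livers. By edgeR 0 genes were called in WT, with 976 (8.42%) whose unadjusted p was under 0.05 (4.65% with higher values on Alios, 3.77% with lower ones), and DESeq2 called 1. Of the 22 genes called in HET, 21 had the same direction in WT, where Eps8l1 was the exception, and 13 had it with an unadjusted WT p under 0.05. Over all genes, 65.3% had the same direction in both genotypes, with Pearson r = 0.34 across 11595 genes, which are not independent replicates. All 22 had a smaller change in WT than in HET, with medians of log2 0.39 and 1.01 in the HET direction. The genes were chosen for their change in HET, so a smaller value in WT is no test of a genotype effect.

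The difference between the diet effects of HET and WT was tested for every gene, and 0 were called by edgeR. At an unadjusted p under 0.05 stood 2.71% of the genes tested, DESeq2 also called 0, and the smallest edgeR adjusted p was 0.944. Plin2 was 1064 ± 221 CPM (SD, n = 6) on Alios and 651 ± 108 CPM (SD, n = 5) on Control in WT (log2 0.71 ± 0.18), and its difference of effects was log2 0.43 ± 0.27 (unadjusted p = 0.12, by edgeR's quasi-likelihood test across all genes). Ldha averaged 665 ± 128 and 630 ± 41.3 CPM in WT (log2 0.08 ± 0.11), and its difference of effects was log2 0.58 ± 0.17 with an unadjusted edgeR p = 0.0018. Eps8l1 had the smallest p of all genes, log2 2.27 ± 0.48 in HET and -0.49 ± 0.35 in WT, a difference of 2.75 ± 0.60 with an unadjusted edgeR p = 8.1e-05. Hunk (difference log2 1.82 ± 0.53), Pgm3 (0.89 ± 0.26) and the epithelial cadherin Cdh1 (2.02 ± 0.60) were also among the 10 genes of smallest p, which further held Fem1c (0.71 ± 0.21), Amn1 (-1.05 ± 0.29), Trim41 (-0.48 ± 0.14), Wdr45b (-0.60 ± 0.18) and Exd1 (-1.24 ± 0.37).

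**Figure D4:**
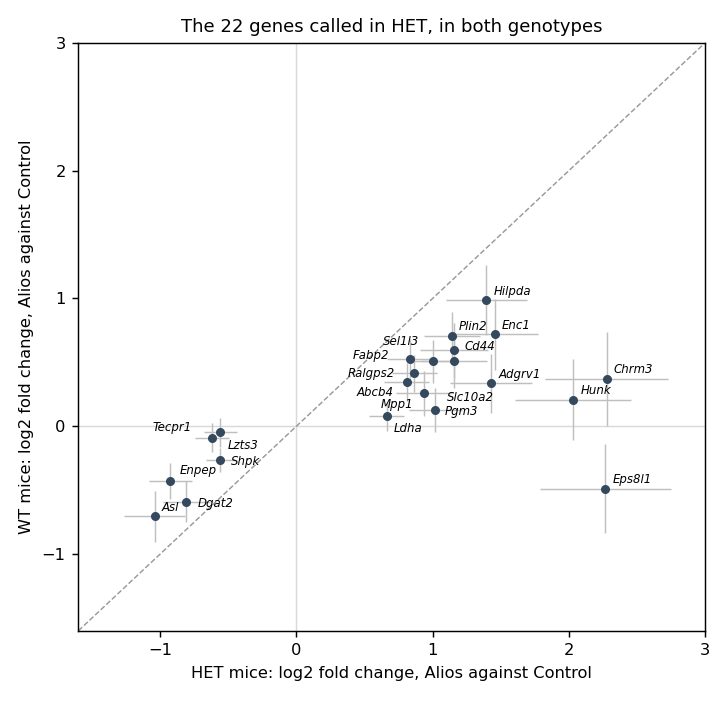
The log2 fold change of Alios against Control is plotted for the 22 called genes in HET mice (horizontal) and WT mice (vertical), with SE bars and a dashed line of equal change. All 22 points lie nearer to 0 on the WT axis, and Eps8l1, at 2.27 in HET and -0.49 in WT, is the 1 gene of opposite sign.

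Groups of genes compared across genotypes gave the same limit. Over all genes tested, 4.65% were higher and 3.77% lower in WT at an unadjusted edgeR p under 0.05. For the difference between genotypes, 2.71% stood at that level. Amino acid and urea cycle enzymes had 9 members lower at an unadjusted p under 0.05 in WT, as in HET, with a WT median of log2 -0.29, and macrophage markers had 17 higher with a median of log2 0.49. Cell cycle genes had 1 higher and 1 lower in WT with a median of log2 0.04, and 4 of the 20 had an unadjusted p under 0.05 for the difference between genotypes, none with an edgeR adjusted p under 0.944. In WT the summed cell cycle level was 94.4 to 209 CPM on Alios and 79.7 to 267 CPM on Control. Fatty acid oxidation genes had 2 higher in WT with a median of log2 0.17, and 1 of 37 passed that level for the difference. Both counts are near the shares over all genes. Fatty acid and triglyceride synthesis genes had 5 higher and 2 lower in WT, where 11 were lower and 7 higher in HET. Their median was log2 0.21 in WT and -0.26 in HET, and 3 of 30 passed that level for the difference. Among the WT genes of smallest p, the gluconeogenic enzyme Fbp1 (log2 -0.47 ± 0.11 in WT, -0.48 ± 0.12 in HET), Cgref1 (1.52 ± 0.32 and 1.57 ± 0.38), Emc10 (-0.57 ± 0.14 and -0.60 ± 0.15), Car14 (-0.76 ± 0.19 and -0.78 ± 0.21), Tnrc18 (-0.44 ± 0.11 and -0.42 ± 0.12) and Casp8 (0.54 ± 0.14 and 0.52 ± 0.16) had close values in the 2 genotypes. Nfic, Ogfr, Pla2g4a and the pancreatic amylase Amy2a5 completed those 10. Pancreas markers reached up to 386 CPM in WT Control libraries and 34.6 CPM in HET Control libraries, and their part in the WT values was not tested.

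**Figure D5:**
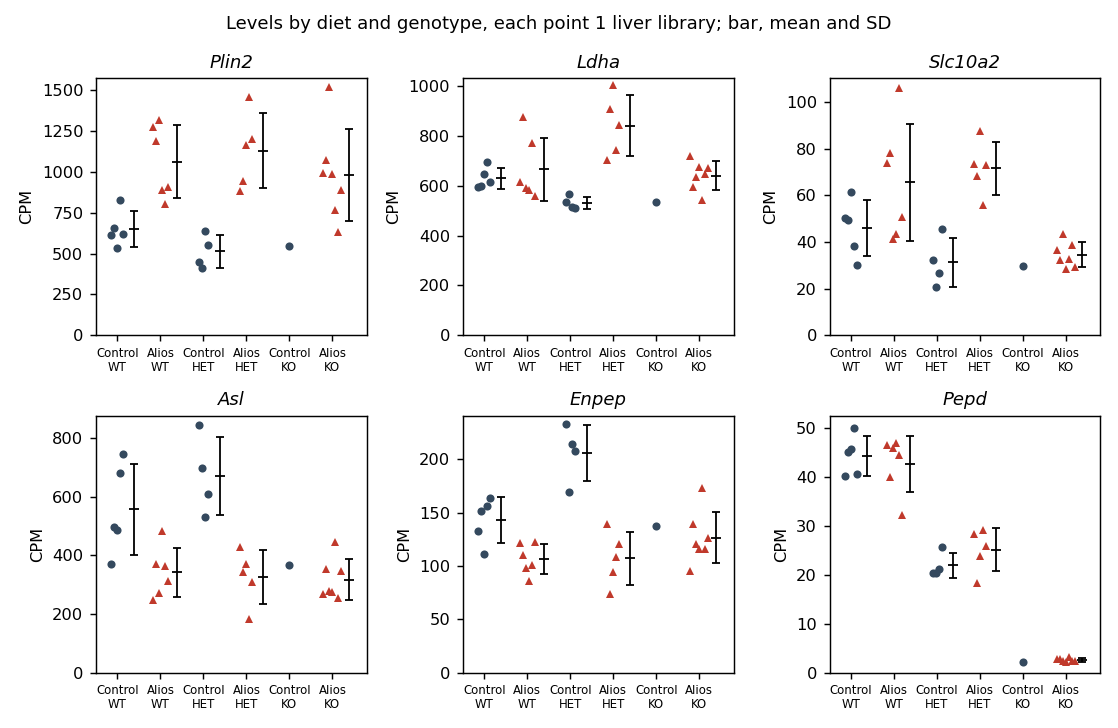
CPM of 6 genes is shown by diet and genotype, each point 1 liver library, with the mean and SD of each group at its right (circles, Control; triangles, Alios; KO Control has 1 library, and KO Alios shows 7 of its 8, without the shallowest). Plin2 is higher and Asl lower on Alios in HET. In WT their means differ in the same direction, but neither gene is called and the libraries overlap. Pepd separates the genotypes.

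KO mice had a single Control library, so no test was made there. The median of the 8 KO Alios libraries differed from that library in the HET direction in 19 of the 22 genes, with Eps8l1, Hilpda and Lzts3 as the others, and in 54.9% of all genes tested. These medians keep KO Alios library 8, where a single read stood for 21.3 CPM. Lzts3 had its highest KO Alios value there, 42.5 CPM. Its median of 28.9 CPM lay close to the 28.5 CPM of the KO Control library, so its direction is uncertain. Among the 19, Hunk (median 3.95 beside 3.84 CPM) and Fabp2 (165 beside 161 CPM) also lay close, so their directions are uncertain too. Plin2 had a KO Alios median of 990 CPM beside 549 CPM in the KO Control library, and Asl 312.8 beside 369 CPM. Slc10a2 was at 34.8 beside 29.8 CPM, and Enpep at 124 beside 138 CPM.

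HET mice on a high-fat diet (n = 11) and on chow (n = 8) gave a second pair of diets with no shared libraries, in levels scaled over all 12 liver groups. The median moved from chow to high-fat diet in the Alios direction in 19 of the 22 genes, the others being Tecpr1, Hunk and Dgat2, and in 60.9% of all genes tested. Plin2 had medians of 469 CPM on chow and 1104 CPM on high-fat diet, and Asl of 743 and 406 CPM. Abcb4 went from 245 to 408 CPM and Fabp2 from 82.5 to 197 CPM. Dgat2 was at 531 and 532 CPM, and Slc10a2 at 33.3 and 37.6 CPM. In 1 of the high-fat mice labelled HET, Pepd was at 1.26 CPM, within the KO range.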

How the data were processed

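Liver RNA was sequenced as stranded mRNA libraries with single-end reads of 50 bases, from RNA with an integrity number above 7, per the labels' protocols. The submitters' processing notes list STAR 2.5.1b, featureCounts 1.5 and build GRCm38.p5; which strand option and annotation release were used is not given in the sources used here. Raw read counts per Ensembl gene were deposited by the authors, 25759 genes in 75 liver libraries, of which 25723 matched a symbol in the GRCm38 annotation. Some genes abundant in liver, such as Hpd and Cox4i1, are listed at 0, so a 0 in the table is not read as absence. The gonadal fat table was not used here.

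Groups followed the labels. Control and Alios livers of all 3 genotypes (29 libraries in 6 groups) were fitted together in R 4.3.3 with edgeR 4.0.16: expression filter (minimum count 10, minimum total 15), TMM, dispersion estimate, quasi-likelihood fit and two-sided test, with Benjamini-Hochberg adjustment within each comparison and calls at an adjusted p under 0.05. SE is the log2 fold change divided by the square root of F. CPM used TMM-scaled library sizes. No pair of libraries in a group agreed within sampling noise. The labels name a mouse for each library, so p-values measure the spread between mice, estimated over all 6 groups. Mice were housed 3 to 4 in a cage, and the fit has no term for cage. The code was tested on simulated counts.

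Named genes were Pepd, the 12 called genes that were most raised and the 12 most lowered on the log2 scale, at a mean of at least 1 CPM, up to 3 called members per list, and, where under 10 genes were called, the 10 of smallest p; members of lists could be named called or not, and Ralgps2 was added after its values were seen. The members, the 46 gene lists and the tests were chosen with earlier results of these data known. Lists are described by counts and medians beside those of all genes. Alternatives were DESeq2 1.42.0, RLE size factors, other filters, only the groups compared, all 12 liver groups, a replicate block, the mouse number as a covariate, a robust prior, an adjusted p under 0.01, and each library of the HET and WT Control and HET Alios groups left out in turn. List counts under these settings were added after the data were seen. Promoter sequences are from RefSeq (GRCm38.p6), and 18 of the 22 called genes had an entry. Reads of near-identical genes, such as the paired globins, may have been split or lost in counting.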

Additional observations from a re-analysis of the deposited data

Results flagged for a closer look

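In 138 checks of genes and summed lists over the HET libraries, 12 had a library far from the rest of its group; chance gives such a gap in about 1 of 20 groups. On Control, Hunk was low in library 1 (0.949 CPM), Pepd was high in library 4 (25.8 CPM), and the xenobiotic cytochromes P450 were high in library 2 (20414 CPM summed). Control library 1 was high in the unfolded protein response list (6028 CPM) and in heat shock genes (1466 CPM), and Control library 3 in erythroid genes (1307 CPM).

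On Alios, library 4 was high in cytokines and chemokines (799 CPM), lipid-associated macrophage genes (700.4 CPM), cholangiocyte markers (366 CPM) and epididymis markers (1.52 CPM, a few reads). The first 3 of these lists share Spp1, which was at 340 CPM in that library. Alios library 3 was low in retinoid metabolism genes (5266 CPM), and Alios library 2 was high in skeletal muscle markers (9.61 CPM).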

How the results depend on the processing

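The number of genes called in HET, 22, was 71 with DESeq2 (21 shared), 0 in a fit of only the 2 groups compared (1429 at an unadjusted p under 0.05), 10 without Alios KO library 8 and 0 at an adjusted p under 0.01, and 43 (17 shared) with the mouse number as a covariate. That number was lower than in every Control mouse of the same genotype in 4 of 5 HET and 5 of 6 WT Alios mice, so it and the diet are partly confounded. Leaving out 1 HET library gave 0 to 50, and leaving out 1 WT Control library gave 9 to 63. RLE size factors, other filters and a robust prior gave 18 to 24, and all 12 liver groups gave 28, of which 13 were shared. The count in WT, 0, was 1 with DESeq2 and 28 with the mouse number as a covariate. Leaving out 1 HET library or 1 WT Control library gave 0 to 2 in WT, and no WT Alios library was left out. The difference of effects had 0 calls under every alternative. The causes of these shifts were not tested.

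Replicate numbers are shared between the diets. The deviations of same-numbered libraries correlated at 0.06, 0.01, -0.05 and -0.06, and those of the other pairs at -0.11 to 0.17. With 4 same-numbered pairs, the check cannot decide whether the numbers mark pairs. With the replicate block 4 genes were called.

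No called gene changed direction under any of its 24 alternatives, and none was called in all of them. Enpep was called in 19, Plin2 and Ralgps2 in 18 and Shpk in 17, against 10 for Asl, 9 for Cd44, Dgat2 and Enc1 and 6 for Lzts3. Of the 9 fits without 1 HET library, Asl, Dgat2 and Lzts3 were called in 1 each. The 22 calls are thus close to the threshold, and with totals of 1106283 and 1120807 counts in 2 libraries, genes of a few CPM rest on few reads.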
